A study of Homo sapiens with 6 samples.

Results

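The let-7 family was examined in small RNA libraries of extracellular vesicles released by MHCC97H, an established and highly metastatic line of human liver cancer cells. Its members were taken by name from the table of counts and were hsa-let-7a-5p, hsa-let-7b-5p, hsa-let-7c-5p, hsa-let-7d-5p, hsa-let-7d-3p, hsa-let-7e-5p, hsa-let-7f-5p, hsa-let-7g-5p, hsa-let-7i-5p and hsa-miR-98-5p, written below without the species prefix. All 10 names were found among the 1007 miRNA names of the table. Control cells without xanthatin gave 3 libraries, and cells kept for 24 h with 4 µmol/L xanthatin, a sesquiterpene lactone of Xanthium plants, gave the other 3. The labels give DMSO at 0.5% for the experiments as a whole and do not say separately that the controls received it. Both groups shared the same line and a medium with 5% ordinary fetal bovine serum beside 5% serum depleted of exosomes, so ordinary serum was present in both groups. Nothing in the labels says whether the 3 samples of a group were separate cultures, so p-values measure the spread between these samples, which may be technical. The comparison asked how vesicle miRNAs differ after xanthatin.

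let-7 is among the most conserved animal miRNA families and is known for promoting differentiation. Its mature 5p strands share 1 seed, the bases that pair with target transcripts, and repress growth-promoting genes such as RAS, MYC, HMGA2 and LIN28B. LIN28 proteins in turn block the maturation of let-7 precursors. In liver the family is abundant, and lower let-7 has been reported in hepatocellular carcinoma.

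The mature sequences show how little separates the members whose counts are compared below. They are RefSeq entries (GRCh38.p14), found for all 10 names, written 5′ to 3′ with the seed (bases 2 to 8) in capitals.
let-7a-5p: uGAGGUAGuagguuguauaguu
let-7b-5p: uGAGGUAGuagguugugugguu
let-7c-5p: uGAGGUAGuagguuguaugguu
let-7d-5p: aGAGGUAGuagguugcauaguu
let-7e-5p: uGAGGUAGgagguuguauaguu
let-7f-5p: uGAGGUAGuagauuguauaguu
let-7g-5p: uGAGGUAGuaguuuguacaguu
let-7i-5p: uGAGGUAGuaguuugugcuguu
miR-98-5p: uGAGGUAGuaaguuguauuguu
let-7d-3p: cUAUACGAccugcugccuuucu
The 9 5p members all carried the seed GAGGUAG, and let-7d-3p, from the other arm of the let-7d precursor, carried UAUACGA. All 10 reference sequences were 22 nt long, and the lengths of the sequenced reads were not examined. Equal length does not show that each sequence is captured equally well, which was not measured. Levels of different miRNAs below are therefore orders of counts, not of molecules. Counting positions from 1 at the 5′ end, with the let-7a-5p base first and the base of the other member last, let-7f-5p differed from let-7a-5p by G12A, let-7c-5p by A19G and let-7e-5p by U9G. let-7b-5p differed by A17G and A19G, and let-7d-5p by U1A and U16C. miR-98-5p differed by G11A and A19U, let-7g-5p by G12U and U18C, and let-7i-5p by G12U, A17G, U18C and A19U. Across the 36 pairs of 5p members the number of differing bases ran from 1 to 6, and 4 pairs differed by 1 base. How the deposited counting assigned reads that fit several members is not given in the sources used here, so counts of such close members are uncertain to that extent. Of the other human miRNAs of the RefSeq table, miR-4458 and miR-4500 share the seed, and neither was among the miRNA names with deposited counts.

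The members come from 12 precursors, most of them in clusters (GRCh38). On chromosome 9, MIRLET7A1 (94175957 to 94176036), MIRLET7F1 (94176347 to 94176433) and MIRLET7D (94178834 to 94178920) lie on the plus strand in introns of the noncoding gene AL158152.2. On chromosome 22, MIRLET7A3 (46112749 to 46112822) and MIRLET7B (46113686 to 46113768) overlap exons of the noncoding transcript MIRLET7BHG. On chromosome X, MIR98 (53556223 to 53556341) and MIRLET7F2 (53557192 to 53557274) are intronic in the ubiquitin ligase gene HUWE1. A further 3 clusters mix let-7 with the miR-99/miR-100 and miR-125 families. MIRLET7A2 (122146522 to 122146593) stands between MIR125B1 and MIR100 in MIR100HG on chromosome 11. MIRLET7C (16539828 to 16539911) stands between MIR99A and MIR125B2 in MIR99AHG on chromosome 21. MIRLET7E (51692786 to 51692864) stands between MIR99B and MIR125A, within an intron of SPACA6 on chromosome 19. MIRLET7G (chromosome 3, 52268278 to 52268361, an intron of WDR82) and MIRLET7I (chromosome 12, 62603686 to 62603769, an intron of the noncoding AC048341.1) have no other member beside them. let-7a-5p has 3 precursors and let-7f-5p has 2, so their counts cannot be given to 1 cluster.

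Depth differed between the groups. Control libraries held 63965 to 80088 miRNA counts and xanthatin libraries 204520 to 267956, of which the family took 5655 to 8424 and 52616 to 67927. Levels are therefore given as CPM, counts scaled to a common library size with TMM factors. The family made up 10.5%, 10.2% and 8.84% of the miRNA counts of the 3 controls and 27.0%, 25.4% and 25.7% after xanthatin. Each count is a share of a library, so more of a miRNA in the vesicles and less of the others cannot be told apart.

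let-7a-5p, let-7b-5p, let-7c-5p, let-7d-5p, let-7f-5p, let-7g-5p, let-7i-5p and miR-98-5p rose after xanthatin, 8 of the 10 members. By edgeR 0 fell, also at an unadjusted p under 0.05, and DESeq2 likewise called 0 lower. Over all 254 tested miRNAs the same test (edgeR quasi-likelihood, adjusted p under 0.05) called 13.4% higher and 16.9% lower, 30.3% in either direction. The members' median log2 fold change was 2.01, against -0.16 over all tested miRNAs. The folds of mean CPM among the 8 ran from 2.14 for let-7d-5p to 6.87 for miR-98-5p. In 9 members the 3 xanthatin libraries all lay above the 3 control libraries, let-7d-3p being the exception, while 25.2% of all tested miRNAs had groups apart in that direction and 29.5% in the other. Of the other scalings, library totals alone moved all tested miRNAs by a median log2 of -0.34, totals without the 10 most abundant by 0.14, and totals and factors from miRNAs outside the family by 0.15. All 10 members kept a positive log2 fold change under each of these.

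**Figure D1:**
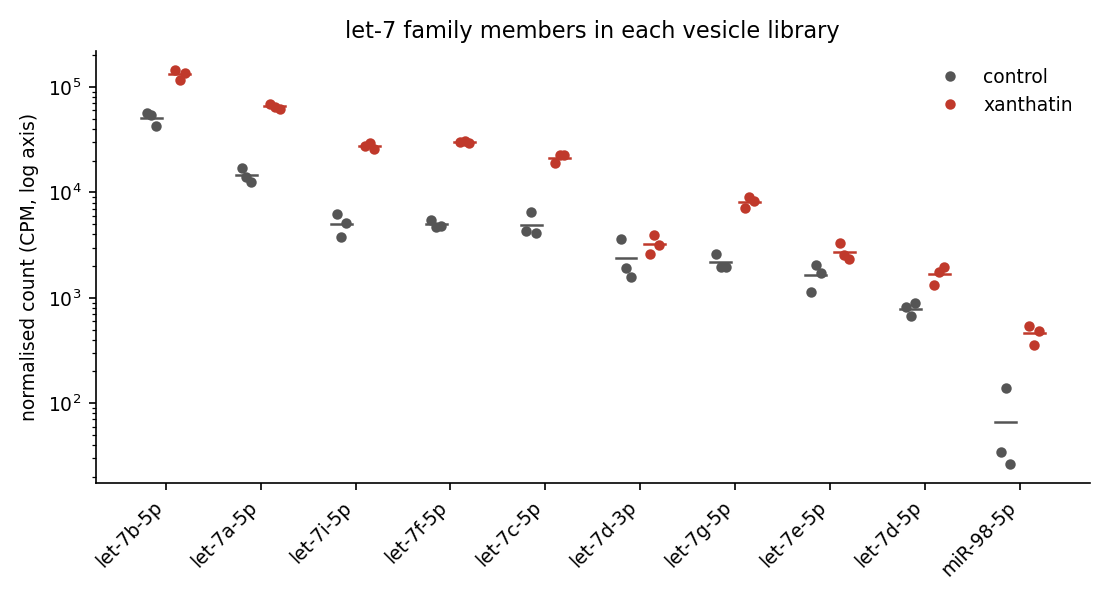
Normalised count (CPM, log axis) of each member in the 3 control libraries (grey) and the 3 xanthatin libraries (red), with a bar at each group mean and members ordered by control level. The groups are apart for every member except let-7d-3p, and the control values of miR-98-5p scatter most.

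let-7b-5p, the most abundant member in every library, had 56134, 54406 and 42474 CPM in controls and 143893, 116431 and 136027 CPM after xanthatin. Its log2 fold change of 1.37 (SE 0.14, edgeR adjusted p = 9.27e-04) was among the smaller ones of the members that rose, and its highest control value was far under its lowest xanthatin value. let-7a-5p, the founding member in human nomenclature, had 17164, 14025 and 12508 against 69795, 65187 and 62243 CPM. Its rise was 2.17 on the log2 scale (SE 0.14, edgeR adjusted p = 1.24e-04), with little spread in either group.

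let-7f-5p, 1 base from let-7a-5p, had 5474, 4725 and 4830 CPM in controls and 29794, 30914 and 29280 CPM after xanthatin. Relative to their means these were the tightest groups of the family, and its log2 fold change was 2.58 (95% interval 2.33 to 2.83, edgeR adjusted p = 1.98e-05), the rank 15 from the top among tested miRNAs. let-7i-5p, the member with the most base differences from let-7a-5p, had 6238, 3816 and 5150 against 27299, 29613 and 25620 CPM (log2 fold change 2.44, SE 0.20, adjusted p = 4.91e-04). In control it lay near let-7f-5p and let-7c-5p, and the values of these 3 members overlapped there. let-7c-5p had 4282, 6456 and 4112 against 18942, 22579 and 22838 CPM (log2 fold change 2.12, SE 0.21). let-7g-5p, encoded alone within WDR82, had 2627, 1971 and 1956 against 7144, 9092 and 8259 CPM (log2 fold change 1.90, SE 0.19). Adjusted p was 9.27e-04 for let-7c-5p and for let-7g-5p, and both kept groups that did not overlap.

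let-7d was the precursor with both arms among the members. let-7d-5p had 70, 53 and 67 counts across the controls against 281, 424 and 355 after xanthatin, or 810, 670 and 892 against 1330, 1763 and 1972 CPM. Its rise was 1.09 on the log2 scale (SE 0.27, edgeR adjusted p = 0.0256), the least among the 8. Leaving out control replicate 1 or 2 ended that call (adjusted p = 0.0654 and 0.0808), as did leaving out xanthatin replicate 2 or 3 (0.0837 and 0.0835) and scaling by library totals alone (0.0859). let-7d-3p had 3588, 1933 and 1570 CPM in controls and 2609, 3916 and 3144 CPM after xanthatin, where control replicate 1 lay above xanthatin replicates 1 and 3. Its log2 fold change was 0.45, with a 95% interval of -0.41 to 1.30 (adjusted p = 0.381).

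let-7e-5p had 1146, 2034 and 1730 CPM in controls and 3343, 2548 and 2355 CPM after xanthatin. Its groups did not overlap, but with a log2 fold change of 0.75 (95% interval 0.06 to 1.44) its adjusted p of 0.0939 missed the threshold. miR-98-5p, encoded beside let-7f-2 within HUWE1, was the least abundant member, with 3, 11 and 2 counts across the controls against 113, 85 and 88 after xanthatin. Its log2 fold change of 2.77 had a wide 95% interval, 0.97 to 4.57 (edgeR adjusted p = 0.0353). It was 3.96 without control replicate 2, which held 11 of the 16 control counts. Its call was lost without any other single library (adjusted p = 0.0739 to 0.0977), so at this depth the size of its change is poorly fixed.

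The order of the members by level was nearly the same in both groups. In control it ran let-7b-5p, let-7a-5p, let-7i-5p, let-7f-5p, let-7c-5p, let-7d-3p, let-7g-5p, let-7e-5p, let-7d-5p and miR-98-5p. In xanthatin libraries let-7f-5p stood above let-7i-5p and let-7g-5p above let-7d-3p. Neighbours whose ranges over the libraries overlapped were let-7i-5p, let-7f-5p and let-7c-5p in control, and likewise let-7d-3p, let-7g-5p and let-7e-5p. The order within each of these sets also changed between control libraries. After xanthatin the overlapping neighbours were let-7f-5p with let-7i-5p, and let-7d-3p with let-7e-5p. Within each xanthatin library let-7f-5p was above let-7i-5p (29794, 30914 and 29280 against 27299, 29613 and 25620 CPM). let-7d-3p and let-7e-5p changed order between those libraries.

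The share of the family's own counts that each member took shows the mix without regard to how much the family as a whole moved. let-7b-5p took 57.6%, 60.3% and 56.4% of family counts in control libraries and 47.2%, 41.2% and 46.5% after xanthatin, and the mean share fell by 13.1 percentage points. let-7a-5p took 17.6%, 15.6% and 16.6% against 22.9%, 23.1% and 21.3%. let-7f-5p took 5.61%, 5.24% and 6.42% against 9.78% to 10.9%. In these 3 members the groups did not overlap. Shares were also apart in let-7i-5p, higher after xanthatin, and in let-7d-5p, let-7d-3p and let-7e-5p, lower after xanthatin. They overlapped in let-7c-5p, let-7g-5p and miR-98-5p. How often groups are apart over all miRNAs on this scale was not computed. let-7b-5p and let-7a-5p together held 74.7% ± 1.47 of the family in controls and 67.4% ± 2.93 after xanthatin.

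**Figure D2:**
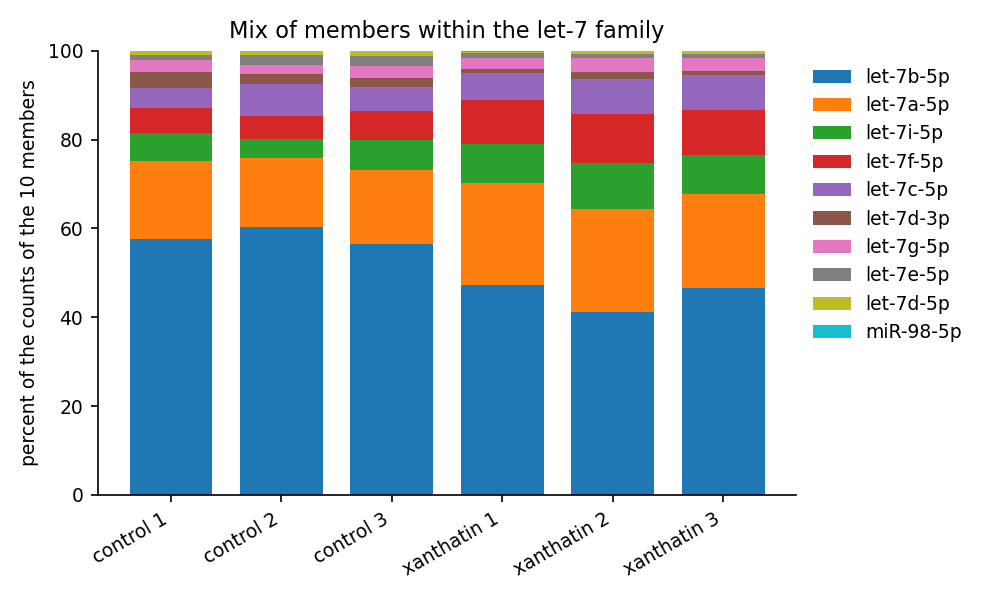
Percent of the summed counts of the 10 members that each member took (bar segments), for each of the 6 libraries. The let-7b-5p segment is shorter in the 3 xanthatin libraries (41.2% to 47.2%) than in the 3 control libraries (56.4% to 60.3%), and the let-7a-5p, let-7f-5p and let-7i-5p segments are longer.

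Tested with the family total as the size of each library, shares of let-7a-5p, let-7f-5p and let-7i-5p rose and shares of let-7b-5p, let-7e-5p and let-7d-3p fell (edgeR quasi-likelihood, adjusted p under 0.05). On that scale 3.79% of 264 tested miRNAs were called higher and 54.5% lower, 58.3% in either direction. The family itself went from 9.84% to 26.0% of miRNA counts, so this scaling moves miRNAs outside it downward. Those percentages are therefore no baseline for the calls of the members. The log2 change of share was 0.83 for let-7f-5p (SE 0.13, adjusted p = 0.00205), 0.43 for let-7a-5p (SE 0.10, adjusted p = 0.0086) and 0.69 for let-7i-5p (SE 0.21, adjusted p = 0.0248). It was -0.37 for let-7b-5p (SE 0.09, adjusted p = 0.0105), -1.25 for let-7d-3p (SE 0.32, adjusted p = 0.0141) and -1.03 for let-7e-5p (SE 0.33, adjusted p = 0.0316). Shares add up to 100, so a lower share of the largest member goes with higher shares elsewhere.
The 4 members not called on this scale had wide or small changes: let-7c-5p at 0.37 (95% interval -0.14 to 0.88), let-7g-5p at 0.17 (-0.31 to 0.64), let-7d-5p at -0.67 (-1.50 to 0.16) and miR-98-5p at 1.05 (-0.73 to 2.83). The call of let-7i-5p ended on leaving out control replicate 1 (adjusted p = 0.0530) or xanthatin replicate 1 or 2 (0.0524 and 0.0801). That of let-7e-5p was lost without control replicate 2 or 3 (0.121 and 0.111) or any xanthatin replicate (0.0552 to 0.0977). The calls of let-7a-5p, let-7b-5p, let-7f-5p and let-7d-3p held without any single library. Over all 11 alternatives of this fit, let-7d-3p kept its call in 10, let-7i-5p in 6 and let-7e-5p in 3.

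The clusters that mix let-7 with other families allow a member to be set against a partner of the same cluster inside each library, where scaling cancels. Folds of a ratio are taken between the group means of its log2 values. let-7c-5p and miR-99a-5p lie 658 bp apart at the precursor level on chromosome 21. let-7c-5p had 0.429, 0.767 and 0.470 counts for each miR-99a-5p count in control libraries and 2.03, 2.18 and 2.32 after xanthatin, a 4.04-fold higher mean ratio. Thus let-7c-5p had fewer counts than miR-99a-5p in control libraries and more after xanthatin. miR-99a-5p itself was at 9048 ± 830 and 9855 ± 509 CPM (SD, n = 3; log2 fold change 0.12, 95% interval -0.17 to 0.42, adjusted p = 0.497).

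On chromosome 11 the partner of let-7a-2 is miR-100-5p, of the same seed family as miR-99a. let-7a-5p had 0.50, 0.522 and 0.390 counts for each count of miR-100-5p in control libraries and 1.55, 1.44 and 1.38 after xanthatin, a 3.12-fold higher mean ratio. miR-100-5p rose by 0.54 on the log2 scale (SE 0.11, edgeR adjusted p = 0.0103), against 2.17 for let-7a-5p. miR-125b-5p, shared by the chromosome 11 and 21 clusters, was at 914 ± 354 and 912 ± 356 CPM, with a log2 fold change near 0 (95% interval -1.05 to 1.04). Against it, let-7a-5p was 4.60-fold and let-7c-5p 4.46-fold higher in mean ratio after xanthatin. Since let-7a-5p also comes from chromosomes 9 and 22, its ratio to either partner mixes loci.

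On chromosome 19, let-7e-5p had 0.139, 0.269 and 0.225 counts for each count of miR-99b-5p in controls and 0.298, 0.265 and 0.246 after xanthatin, groups that overlapped. Against miR-125a-5p it had 0.678, 1.33 and 0.929 against 1.56, 0.916 and 0.916, which also overlapped, and the direction of that mean difference turned without control replicate 1 or xanthatin replicate 1. miR-99b-5p and miR-125a-5p had log2 fold changes of 0.37 (95% interval 0.07 to 0.67, adjusted p = 0.0650) and 0.56 (0.07 to 1.06, adjusted p = 0.0819), with intervals that overlap that of let-7e-5p. The minor strands of that cluster lay the other way. miR-99b-3p fell from 80, 37 and 20 counts in control to 27, 20 and 4 in the deeper xanthatin libraries (log2 fold change -2.81, SE 0.81, edgeR adjusted p = 0.0435), and miR-125a-3p was at -1.04 (adjusted p = 0.122).

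**Figure D3:**
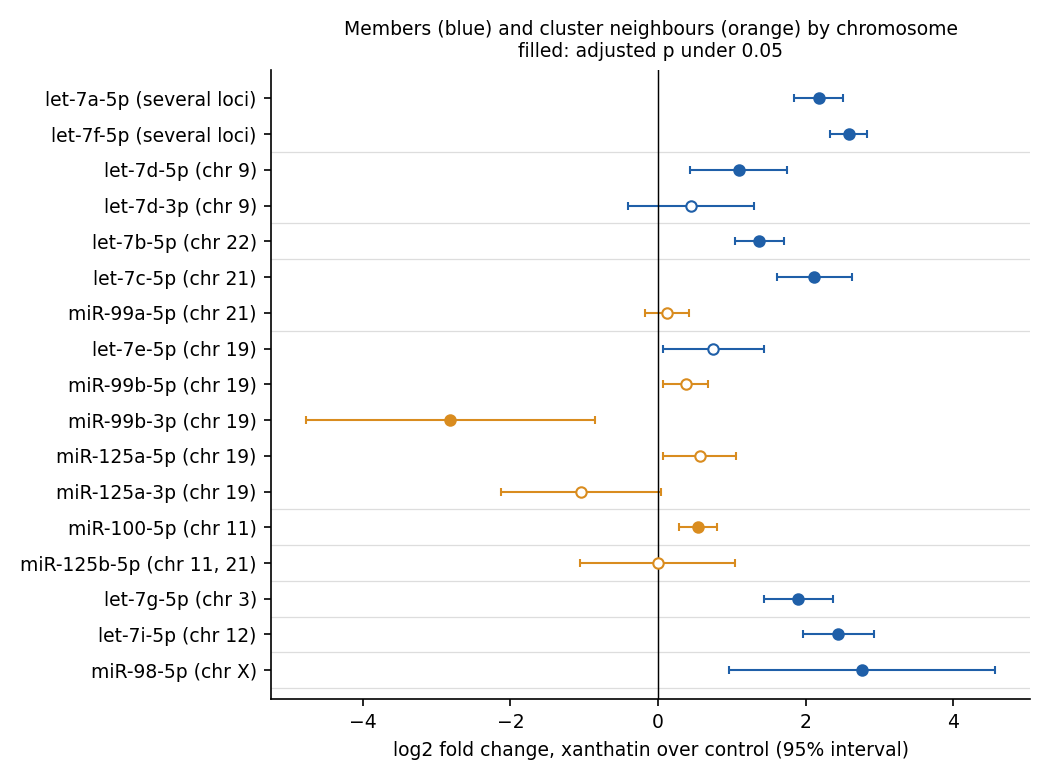
Log2 fold change (xanthatin over control, with 95% interval) of the members (blue) and the tested cluster neighbours (orange), grouped by locus, filled where adjusted p was under 0.05. let-7c-5p has a larger value than miR-99a-5p of the same cluster, with intervals apart, while let-7e-5p, miR-99b-5p and miR-125a-5p overlap.

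Within the let-7 clusters, let-7b-5p had 3.27, 3.88 and 3.40 counts per let-7a-5p count in controls and 2.06, 1.79 and 2.19 after xanthatin. let-7f-5p had 0.319, 0.337 and 0.386 counts per let-7a-5p count against 0.427, 0.474 and 0.470, and this pair, which shares a cluster on chromosome 9, had the smallest log2 difference (0.40) among the ratios whose groups were apart. let-7d-5p, of the same chromosome 9 cluster, had 0.0472, 0.0477 and 0.0713 counts per let-7a-5p count against 0.0191, 0.0270 and 0.0317, lower in every xanthatin library. The ratio of miR-98-5p to let-7f-5p overlapped between groups, with 3, 11 and 2 control counts behind it. let-7d-3p outnumbered let-7d-5p in all 6 libraries: let-7d-5p had 0.226, 0.346 and 0.568 counts per let-7d-3p count in controls and 0.51, 0.450 and 0.627 after xanthatin, and these groups overlapped.

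In all, 11 such ratios were compared, and in 7 the groups did not overlap, 5 higher and 2 lower after xanthatin. These ratios share let-7a-5p, let-7c-5p or miR-125b-5p, so they are not separate results. How often ratios of other miRNA pairs are apart was not computed. With 3 libraries against 3, the two-sided exact permutation test cannot go below p = 0.1, which all 7 reached (adjusted p = 0.157 over the 11), so none can pass 0.05 in this design.

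**Figure D4:**
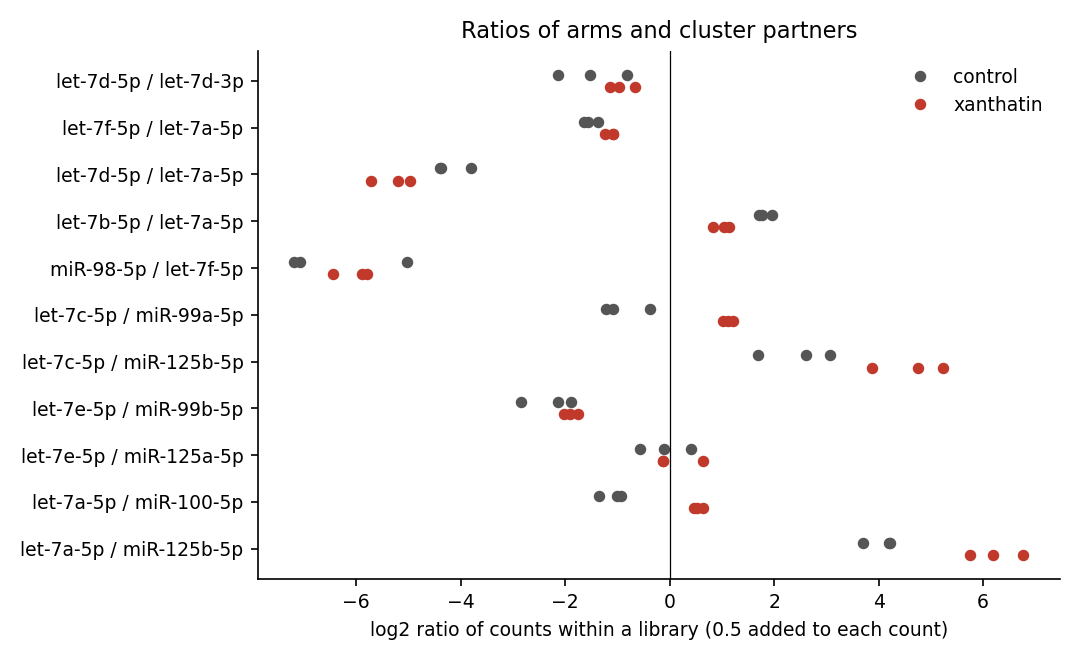
Log2 ratio of the counts of a member and its partner within each library (0.5 added to each count), 1 row per pair, control libraries in grey and xanthatin libraries in red. The ratios of let-7c-5p to miR-99a-5p and of let-7a-5p to miR-100-5p pass from below 0 in control to above 0 after xanthatin, and those of let-7e-5p to its partners overlap.

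Of 10 listed 3p strands beyond let-7d-3p, let-7b-3p was counted, with 0 counts in every control library and 3, 20 and 11 counts after xanthatin. Its pooled xanthatin rate of 53.8 CPM was 4.32-fold above a floor of 3 counts over the control group, equal to 12.5 CPM. The floor covers counting error of the controls only, so 4.32 is not a lower bound. Xanthatin replicate 1 lay at 14.2 CPM, and let-7b-3p had too few counts for the test. The other 9 were not among the miRNA names with deposited counts. Of 13 listed strands of cluster neighbours, 9 were counted and 7 were tested, of which miR-100-5p rose and miR-99b-3p fell. miR-125b-1-3p, with 1, 0 and 20 counts across the controls against 0, 4 and 1 after xanthatin, was among those not tested.

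Members of lower G+C content tended to have larger log2 fold changes, though not in strict order. The 2 members with the lowest G+C content, let-7f-5p and miR-98-5p at 31.8%, had log2 fold changes of 2.58 and 2.77. let-7a-5p and let-7g-5p, at 36.4%, had 2.17 and 1.90, and the 4 members at 40.9% ranged from 0.75 (let-7e-5p) to 2.44 (let-7i-5p). let-7b-5p, at 45.5%, had 1.37 and let-7d-3p, at 50%, had 0.45. Spearman's rho between G+C content and log2 fold change was -0.70 over the 9 5p members, which share libraries and most bases, so it is a description of few related sequences. Over 160 tested known miRNAs with a RefSeq sequence it was -0.27, and -0.17 without the members. With an offset for G+C content fitted in each library on miRNAs outside the family, 7 members were called higher, let-7f-5p was at 2.42 and let-7b-5p at 1.35, and let-7d-5p missed the threshold (1.02, adjusted p = 0.05005).

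**Figure D5:**
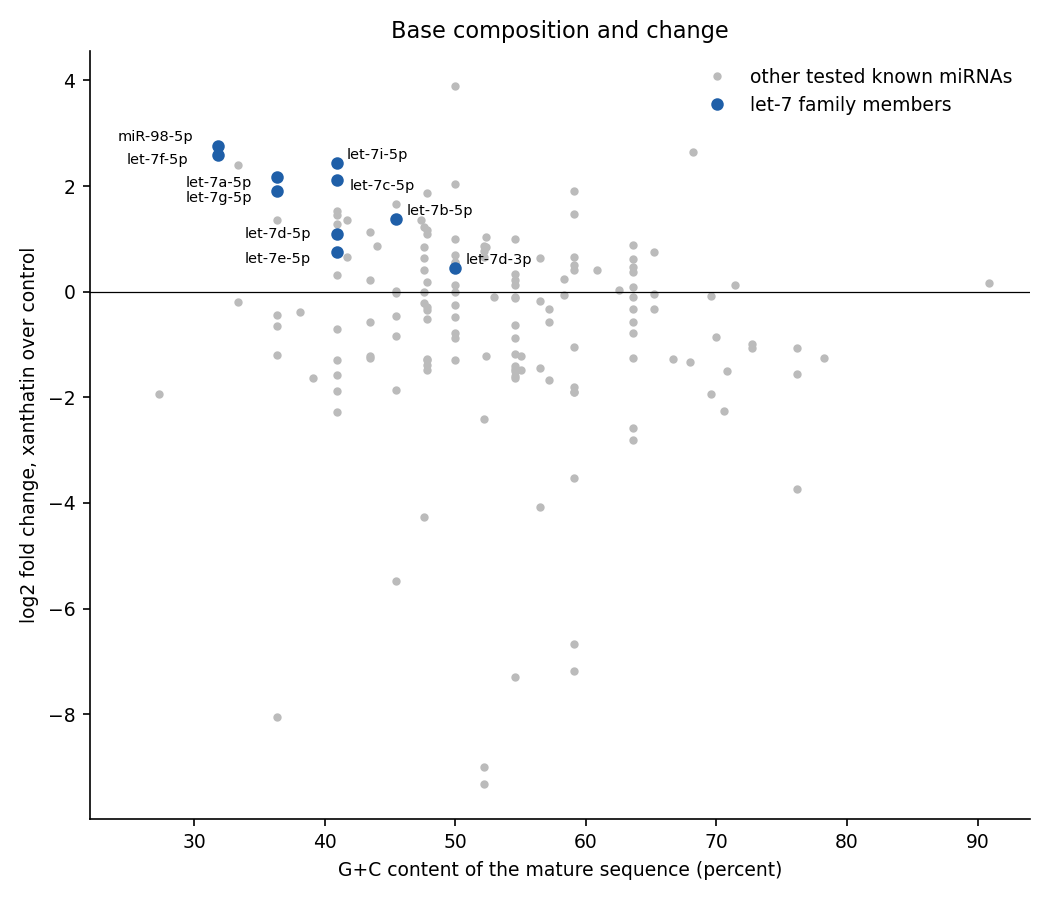
Log2 fold change (xanthatin over control) against G+C content of the mature sequence, for the members (blue, named) and the other tested known miRNAs with a RefSeq sequence (grey). Members of lower G+C content tend to have larger fold changes, though not in strict order. The values run from 2.77 for miR-98-5p to 0.45 for let-7d-3p, and the grey points show a weaker relation with wide scatter.

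Marker miRNAs of hepatocytes and of other cell types also differed between the groups. Blood markers with counts, 4 of 8 listed, held 0.619% to 1.19% of control counts and 0.0552% to 0.0705% of xanthatin counts. In that list miR-486-5p fell, while miR-451a, the defining miRNA of red cells, had 0 to 9 counts in any library. Stromal and vascular markers, 7 of 8 counted, held 0.413% to 0.564% and 0.0616% to 0.0885%, with miR-143-3p and miR-10b-5p falling. miR-145-5p had 5, 0 and 3 counts in controls and 0 in each xanthatin library, too few for the test. Hepatocyte markers, 4 of 5 counted, held 10.7% to 13.7% and 2.71% to 3.27%. In that list miR-122-5p and miR-148a-3p fell and miR-192-5p rose. miR-122-5p, the defining miRNA of hepatocytes, was at 48383 ± 9796 CPM in controls and 1086 ± 116 CPM after xanthatin (SD, n = 3). The part of serum RNA and of these marker changes in the higher let-7 counts was not tested. With every library thinned to 63965 miRNA counts, 8 members were again called higher, with let-7a-5p at a log2 fold change of 2.14, let-7b-5p at 1.33 and let-7f-5p at 2.55.

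As a percent of the larger total implied by the deposited TPM, of which miRNA counts were under 1%, the family was at 0.0601% to 0.0720% in controls and 0.196% to 0.223% after xanthatin, groups that were apart on that scale too. Among the 244 tested miRNAs outside the family, the 3 whose centred log2 CPM over the 6 libraries lay nearest to that of the summed family were the predicted sequences novel310_mature, novel723_mature and novel486_mature, with root mean square differences of 0.22, 0.23 and 0.23. novel310_mature had 6, 8 and 6 counts in controls and 57, 60 and 58 after xanthatin, and it rose (log2 fold change 1.74, edgeR adjusted p = 0.0414). novel723_mature (2.09, edgeR adjusted p = 0.0606) and novel486_mature (1.53, edgeR adjusted p = 0.0690) missed the threshold. All 3 were picked by likeness over both groups, so a rise after xanthatin was built into the choice.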

How the data were processed

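Small RNA of 18 to 30 nt from vesicles pelleted for 70 min at 120000xg was sequenced by the authors, per the labels' protocols. The deposited counts are whole numbers per mature miRNA name, and the deposited TPM values equal the count divided by 1 constant per library, per the file headers and values. Per the submitters' processing notes, hg38 was the genome build. The aligner, the miRNA database and the counter were not given in the sources used here.

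Counts of the whole table were tested with edgeR 4.0.16 (R 4.3.3): TMM scaling, the default count filter (minimum count 10; 178 known and 76 predicted names left), quasi-likelihood F test on group, Benjamini-Hochberg adjustment. Standard errors were obtained from F (log2 fold change over root F), and 95% intervals with its total degrees of freedom. A second fit took the summed counts of the members as library size. Ratios used counts plus 0.5 and exact permutation tests over samples (scipy 1.17.1). The edgeR fits, with TMM scaling and with the family total, were tried on simulated counts with known changes, and the other steps were not. No replicate libraries were identical (chi-square per degree of freedom 16.1 to 21.3). DESeq2 1.42.0 and limma 3.58.1 served as alternatives. The floor for let-7b-3p covers counting error of the controls only, as no molecular identifiers are stated, while the 95% intervals include the spread between libraries.

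Named miRNAs were the members, and the other 3p strands and cluster neighbours with at least 10 counts in all. The members and lists were chosen with earlier results of these data known. Sequences and positions come from RefSeq (GRCh38.p14), with hosts, and the position of MIR125B2, from GENCODE release 29 (GRCh38).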

Additional observations from a re-analysis of the deposited data

How the results depend on the processing

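Across 22 alternatives the number of members called higher ran from 6 to 9 (main 8) and the number called lower stayed at 0. No member's log2 fold change changed sign. let-7a-5p, let-7b-5p, let-7c-5p, let-7f-5p, let-7g-5p and let-7i-5p kept their calls in all 22, with log2 fold changes of 2.24 to 2.86 for let-7f-5p and 1.03 to 1.66 for let-7b-5p. let-7d-5p and miR-98-5p were each called in 13 of 22. let-7e-5p passed with DESeq2 (0.91, adjusted p = 0.0331). Leaving out 1 library gave 6 to 7 members called higher, 2 to 3 shares called higher and 2 to 3 called lower. The log2 ratio of let-7e-5p to miR-125a-5p, 0.21 higher after xanthatin with all libraries, was -0.0231 without control replicate 1 and -0.0417 without xanthatin replicate 1, and ran from -0.0417 to 0.461 on leaving out any 1 library.

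The family held 9.84% ± 0.88 of control and 26.0% ± 0.86 of xanthatin counts (SD, n = 3), and leaving out 1 library gave 9.50% to 10.3% and 25.5% to 26.4%. Of known names alone it held 10.9% and 33.0%, and of counts without the most abundant predicted sequence 10.2% and 30.8%. Of the total implied by the TPM it held 0.0672% and 0.211%.

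Groups share replicate numbers, but deviations of same-numbered libraries correlated at 0.12, -0.01 and -0.05, and not every library correlated best with its own number, so the numbers were not taken to pair samples. With the replicate block 6 members were called higher (let-7d-5p and miR-98-5p were not), 2 shares higher and 1 lower in place of 3 and 3, and with the block and the G+C offset 6 members were called higher. Control counts of 2 to 11 limit miR-98-5p.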
